A study of Rattus norvegicus with 17 samples.

Results

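The genes described here are 10 rat liver genes whose expression depends on the time pattern of growth hormone secretion: Cyp2c11, Cyp2c13, Cyp2a2, Cyp3a2, Cyp3a18, Obp3, Car3 and Sult1e1, which are male-biased, and Cyp2c12 and Cyp2c7, which are female-biased. They were named by symbol, with earlier results of these data known. Their probe sets were those annotated to exactly 1 of the 10 symbols on an Affymetrix rat genome array. This gave 12 probe sets of 31042, with 2 each for Car3 and Obp3 and 1 for each other gene. A further probe set, which names Cyp2a2 together with a second gene, was left out. All 12 probe sets passed the filter on low values, as did 15965 probe sets in all. To pass, 5 or more arrays had to show an intensity above 15.5, which is 3.95 in log2.

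The livers came from 17 rats, 1 array per rat. In 5 rats the bile duct was ligated and ghrelin was infused at 10 µg/kg/day (ligated ghrelin). In 6 rats the bile duct was ligated and saline was infused (ligated saline), and 6 rats had an abdominal incision in place of ligation and received saline (sham). Both infusions came from a subcutaneous osmotic minipump. Rats were operated on at week 7 and killed at week 9, after 2 weeks. The strain, the sex and any batch are not given in the labels used here, and no unligated rats received ghrelin.

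In the adult male rat, growth hormone reaches the liver in pulses, and each pulse activates the transcription factor Stat5b through the growth hormone receptor and the kinase Jak2. In the female the hormone is present more continuously. The pulsed pattern keeps male-specific cytochrome P450 genes such as Cyp2c11 on, and the continuous pattern keeps Cyp2c12 on. Ghrelin, a stomach peptide, stimulates growth hormone release from the pituitary. The design sets ligated livers against sham livers, and ghrelin against saline within ligated livers.

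Before the values, the promoters of the 4 members in 1 Cyp2c gene cluster are shown, because these neighbouring genes did not all move the same way after ligation. In RefSeq (GRCr8) chromosome 1 carries 10 protein-coding Cyp2c genes in this cluster, with Cyp2c11 the first, Cyp2c7 the sixth, and Cyp2c12 and Cyp2c13 next to each other as the eighth and the ninth. Each sequence is the 250 bases before the gene's start, 5′ to 3′ on the gene's strand. The windows are chr1:246174966-246175215 (plus strand) for Cyp2c11, chr1:248787189-248787438 (minus strand) for Cyp2c13, chr1:248677035-248677284 (minus strand) for Cyp2c12 and chr1:247966144-247966393 (plus strand) for Cyp2c7. Capitals mark ATTGAT or its reverse complement ATCAAT, the core letters bound by the liver factor HNF6 (Onecut1).
Cyp2c11: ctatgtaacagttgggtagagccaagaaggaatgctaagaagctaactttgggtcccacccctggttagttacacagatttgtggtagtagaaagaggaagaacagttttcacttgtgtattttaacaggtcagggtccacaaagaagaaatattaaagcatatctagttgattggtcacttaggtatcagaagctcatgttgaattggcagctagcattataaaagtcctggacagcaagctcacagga
Cyp2c13: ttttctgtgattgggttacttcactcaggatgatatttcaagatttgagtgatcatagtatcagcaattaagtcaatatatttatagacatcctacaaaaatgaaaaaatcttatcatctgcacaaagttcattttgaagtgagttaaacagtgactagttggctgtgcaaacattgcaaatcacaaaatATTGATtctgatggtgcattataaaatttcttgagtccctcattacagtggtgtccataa
Cyp2c12: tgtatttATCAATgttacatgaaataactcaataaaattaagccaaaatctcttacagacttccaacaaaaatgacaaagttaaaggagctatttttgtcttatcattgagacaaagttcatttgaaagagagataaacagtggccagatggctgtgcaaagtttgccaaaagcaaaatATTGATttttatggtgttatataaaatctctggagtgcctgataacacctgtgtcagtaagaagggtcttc
Cyp2c7: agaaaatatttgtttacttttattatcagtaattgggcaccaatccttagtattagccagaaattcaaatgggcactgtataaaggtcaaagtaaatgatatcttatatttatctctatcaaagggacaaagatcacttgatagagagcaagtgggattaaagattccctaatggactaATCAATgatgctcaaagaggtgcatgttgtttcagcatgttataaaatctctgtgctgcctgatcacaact

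Cyp2c13 and Cyp2c12 held ATTGAT at -60 to -55 and at -71 to -66 from the start, and Cyp2c12 held ATCAAT again at -243 to -238. Cyp2c7 held ATCAAT at -71 to -66, and the Cyp2c11 window held neither. In a global alignment the Cyp2c13 and Cyp2c12 windows were 60.7% identical. The other pairs among the 4 were 46.9 to 54.4% identical. RefSeq promoters were matched for 8 of the 10 members; Cyp2a2 and Car3 were not among them. Sult1e1 was matched by symbol, under another gene identifier than that of the array annotation.

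Of 5 motifs reported, each searched on both strands in these 8 windows, ATTGAT occurred in 4 (Cyp2c13, Cyp2c12, Cyp2c7 and Obp3) and in 7.10% of the 33469 rat promoters in the table. The FOXA letters TGTTTAC occurred in 2 (Cyp3a2 and Cyp2c7) and in 3.21% of all promoters. The HNF4 letters CAAAGTCCA occurred in 1 (Cyp3a2) and in 0.338% of all. The STAT letters TTCNNNGAA and the C/EBP letters TTGCGCAA occurred in 0 of 8, and in 7.67% and 0.140% of all promoters. Overlap between motifs was allowed. G and C made up 32% of the Cyp2c13 window, 32.8% of the Cyp2c12, 34% of the Cyp2c7 and 44% of the Obp3 window. In the other 4 windows they made up 40.4 to 44%. The shares over all promoters were not matched for base composition. These are matches of letters within 250 bases and say nothing of binding.

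Ligation lowered all 8 male-biased members and raised Cyp2c12. All 12 probe sets passed the threshold in ligated saline against sham livers (limma, adjusted p under 0.05), 11 of them lower and 1 higher, where over all 15965 probe sets 27.3% were lower and 34.2% higher. The ligated saline and sham values did not overlap for 12 of 12 probe sets, against 40.9% of all. The second probe sets of Car3 (1386977_at) and Obp3 (1387985_a_at) passed the filter only through sham livers, where they are high. Their calls therefore carry little weight. With 1 probe set per gene, 9 of 10 genes were lower and 1 higher, against 27.2% and 37.5% of all 9736 genes. Obp3, Car3 and Cyp2c11 fell by more than 7 on the log2 scale, and the other male-biased members by 1.06 to 2.26. In RNA from whole liver, fewer cells of a type and less RNA per cell cannot be told apart.

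**Figure D1:**
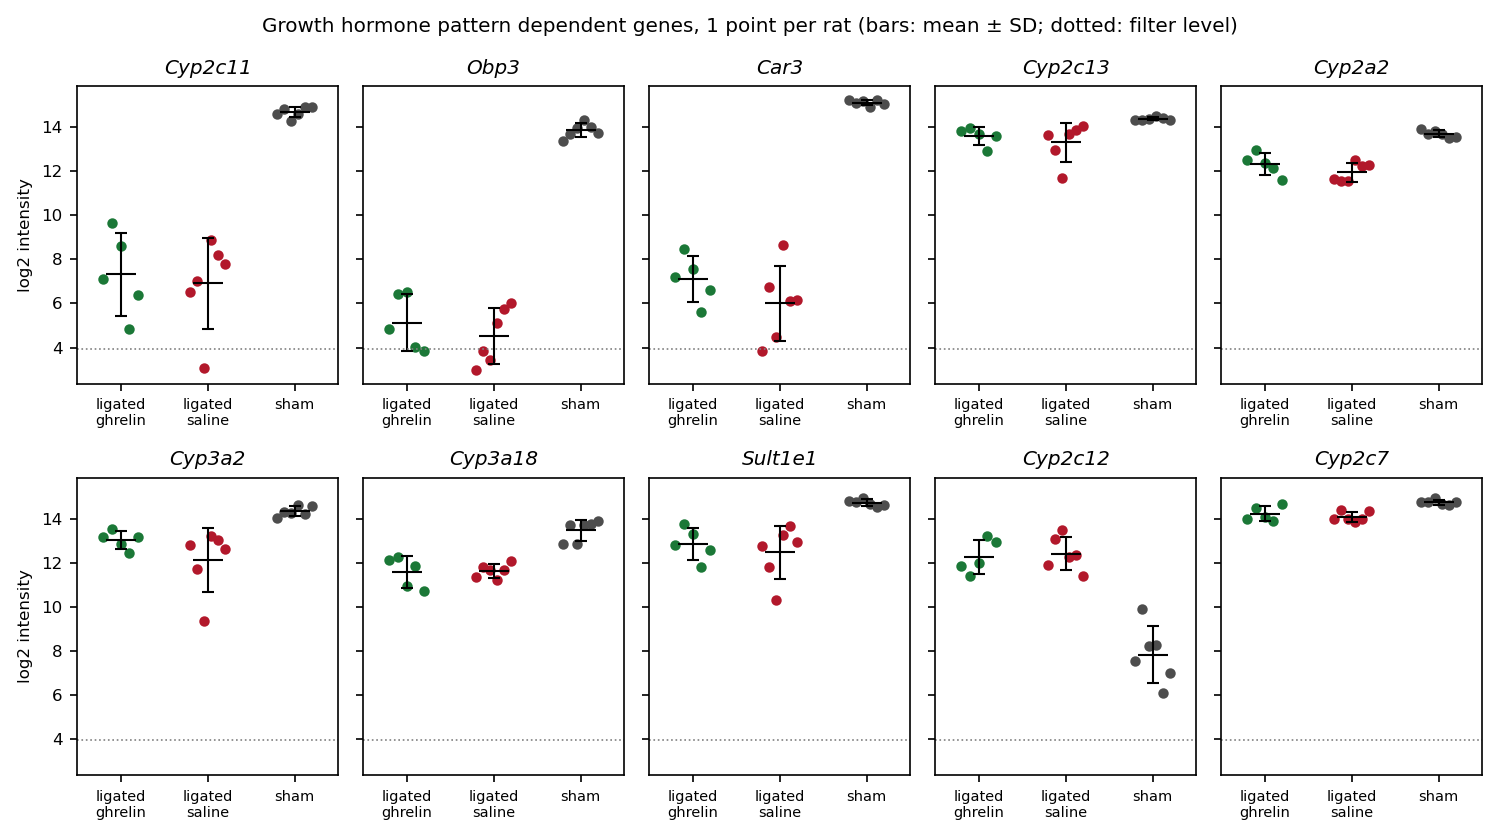
Log2 intensity of the 10 genes (probe set with the highest mean for Car3 and Obp3), 1 point per rat, in ligated ghrelin (5), ligated saline (6) and sham (6) livers, with mean ± SD in black and the filter level dotted. Every male-biased member was lower in both ligated groups than in sham, Cyp2c12 was higher, and the 2 ligated groups overlap for all 10 genes.

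Cyp2c11 (probe set 1387328_at) encodes the main male-specific P450 of rat liver, a testosterone hydroxylase. It measured 7.11, 9.63, 8.60, 4.86 and 6.37 in the 5 ligated ghrelin livers (log2 intensity). In ligated saline livers it ranged from 3.09 to 8.89 with a median of 7.40, and in sham livers from 14.29 to 14.91 with a median of 14.71. The ligated livers lie far below sham and are spread widely, with an SD of 1.87 in ligated ghrelin and 2.05 in ligated saline, against 0.237 in sham. The change in ligated saline against sham was -7.77 ± 0.845 (SE, adjusted p = 7.75e-07), which is 218-fold lower. Without ligated saline 3, the rat with the lowest value, the change was -7.01.

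Obp3 encodes a lipocalin related to the alpha-2u globulins, carriers of small odorants that male rat liver secretes. By probe set 1370479_x_at it measured 4.82, 6.41, 6.54, 4.01 and 3.82 in ligated ghrelin livers. It ranged from 2.98 to 6.03 (median 4.48) in ligated saline livers and from 13.38 to 14.30 (median 13.85) in sham livers. The change in ligated saline against sham was -9.33 ± 0.556 (adjusted p = 1.29e-09). The second probe set, 1387985_a_at, gave -10.97 ± 0.287 (adjusted p = 7.68e-14). The suffix of 1370479_x_at marks probes that may also match related transcripts, so other alpha-2u globulins may add to it. Whether they also add to 1387985_a_at was not tested. Several ligated livers lay under the filter level: 1 of 5 ligated ghrelin and 3 of 6 ligated saline for the first set, and 3 of 5 ligated ghrelin and 4 of 6 ligated saline for the second. The size of the fall is therefore not well determined on either set.

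Car3 encodes carbonic anhydrase 3, an abundant cytosolic enzyme of male rat liver. By probe set 1367896_at it measured 7.20, 8.46, 7.57, 5.63 and 6.63 in ligated ghrelin livers. It ranged from 3.86 to 8.67 (median 6.13) in ligated saline livers and from 14.90 to 15.25 (median 15.13) in sham livers. The fall in ligated saline against sham was -9.11 ± 0.624 (adjusted p = 5.38e-09). By 1386977_at it was -10.39 ± 0.469 (adjusted p = 7.61e-11). On that set 5 of 5 ligated ghrelin and 5 of 6 ligated saline livers were under the filter level. Taking the filter level as the floor, Car3 by that set alone was at least 580-fold lower in ligated ghrelin than in sham livers. By 1367896_at, with 0 of 5 ligated ghrelin livers under the level, that difference was -8.02, which is 259-fold lower. The size of the fall thus differs between the sets, and 1386977_at passed the filter only through sham livers.

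Sult1e1 (1368733_at), the sulfotransferase that inactivates estrogen, measured 12.81, 13.77, 13.30, 11.82 and 12.59 in ligated ghrelin livers. It ranged from 10.32 to 13.68 (median 12.86) in ligated saline livers and from 14.52 to 14.95 (median 14.71) in sham livers. Sult1e1 was thus lower in every ligated liver, by 2.26 ± 0.445 on the log2 scale in ligated saline (log2 change -2.26, adjusted p = 0.000334).

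Cyp3a2 (1370593_at), an adult male-specific testosterone hydroxylase, measured 13.18, 13.53, 12.84, 12.43 and 13.18 in ligated ghrelin livers. It ranged from 9.36 to 13.21 (median 12.70) in ligated saline livers and from 14.03 to 14.62 (median 14.27) in sham livers. Its change was -2.21 ± 0.483 (adjusted p = 0.000817), and -1.66 without ligated saline 3, which lay well below the other 5 ligated saline livers. Cyp3a18 (1398307_at), a male-predominant P450 of the same family, measured 12.12, 12.26, 10.94, 11.86 and 10.70 in ligated ghrelin livers. It ranged from 11.19 to 12.08 (median 11.66) in ligated saline livers and from 12.86 to 13.88 (median 13.71) in sham livers. Its change was -1.84 ± 0.275 (adjusted p = 2.28e-05), with no overlap.

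Cyp2a2 (1369424_at), a male-specific testosterone hydroxylase, measured 12.52, 12.95, 12.36, 12.13 and 11.60 in ligated ghrelin livers. It ranged from 11.55 to 12.50 (median 11.93) in ligated saline livers and from 13.49 to 13.91 (median 13.68) in sham livers. Its change was -1.74 ± 0.207 (adjusted p = 2.07e-06). Cyp2a1, the close relative named with it on the probe set left out, had a change of -0.32 ± 0.187 on its own set and was not called (adjusted p = 0.145).

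Cyp2c13 (1370495_s_at), a male-specific steroid hydroxylase, measured 13.84, 13.94, 13.68, 12.94 and 13.61 in ligated ghrelin livers. It ranged from 11.70 to 14.06 (median 13.66) in ligated saline livers and from 14.32 to 14.50 (median 14.35) in sham livers. It changed least of the male-biased members, by -1.06 ± 0.303 (adjusted p = 0.00617), and by -0.74 without ligated saline 3. This probe set also has a suffix for probes shared by several transcripts, so relatives in the Cyp2c cluster may add to its signal.

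Cyp2c12 (1368155_at), the female-specific P450 that hydroxylates steroid sulfates, moved the opposite way. It measured 11.86, 11.39, 11.98, 13.22 and 12.94 in ligated ghrelin livers. It ranged from 11.42 to 13.47 (median 12.30) in ligated saline livers and from 6.07 to 9.89 (median 7.88) in sham livers. Every ligated liver was above every sham liver. The change in ligated saline against sham was 4.58 ± 0.528 (adjusted p = 1.47e-06), which is 23.9-fold higher. Its spread was wider in sham livers (SD 1.30) than in ligated ghrelin (0.772) and ligated saline livers (0.758), the reverse of the order for Cyp2c11. These differences in spread were not tested.

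Cyp2c7 (1370241_at), a female-predominant P450 that hydroxylates retinoic acid, did not follow Cyp2c12. It measured 13.98, 14.50, 14.08, 13.88 and 14.65 in ligated ghrelin livers. It ranged from 13.86 to 14.41 (median 13.98) in ligated saline livers and from 14.60 to 14.94 (median 14.73) in sham livers. It fell slightly, with a change of -0.65 ± 0.133 (adjusted p = 0.000495). The highest probe set of each array lay between 15.79 and 15.92, so sham values of Car3, Cyp2c7, Sult1e1 and Cyp2c11 stood close to the top of the scale, where differences can be compressed.

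Ghrelin did not change any member detectably. Of the 12 probe sets 0 passed in ligated ghrelin against ligated saline livers by limma, where 0.908% of all probe sets were lower and 1.32% higher, and 0 of 12 had an unadjusted p under 0.05, against 21.3% of all. The adjusted p ranged from 0.308 (Cyp3a2) to 0.935 (Cyp3a18). The values of the 2 ligated groups overlapped for all 12, where 4.41% of all probe sets did not overlap. The estimate was above 0 for 7 of 8 male-biased genes and below 0 for Cyp2c12. Several members varied together among the ligated rats, as given below, so these signs are not separate observations.

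**Figure D2:**
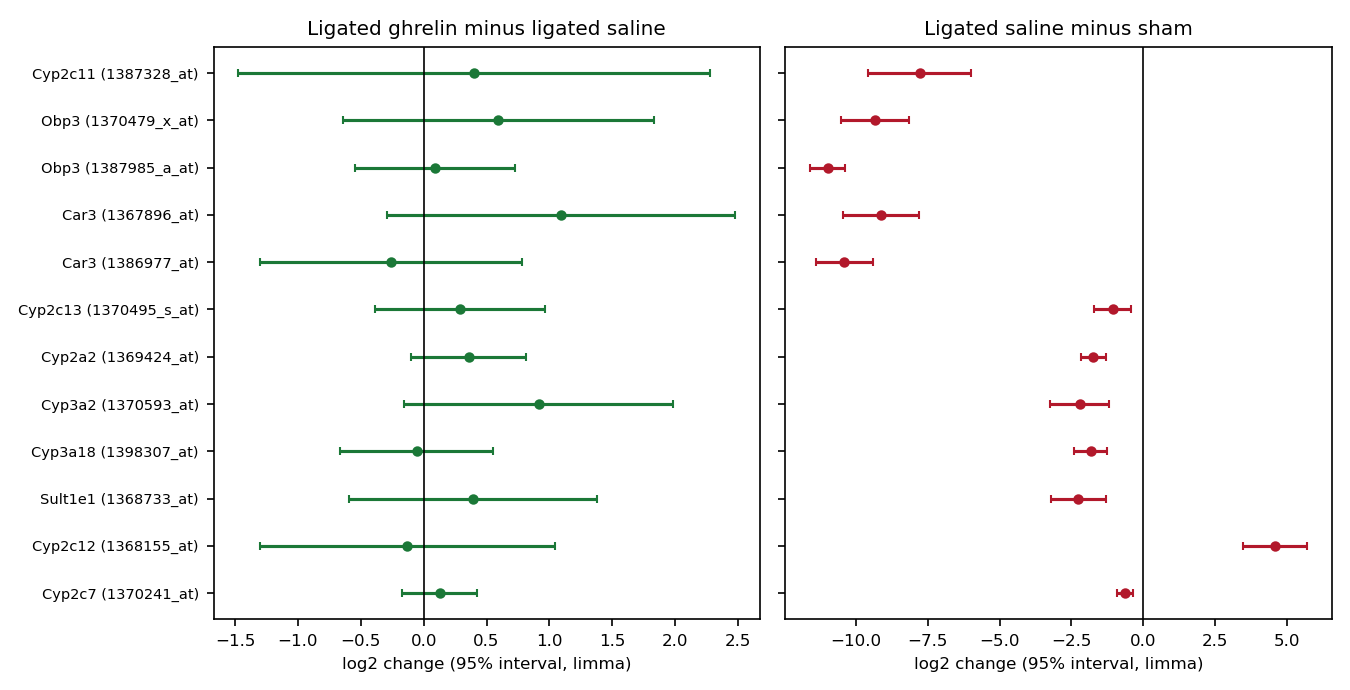
Log2 change with its 95% interval from limma for the 12 probe sets, in ligated ghrelin minus ligated saline livers (left) and in ligated saline minus sham livers (right), on different horizontal scales. All 12 intervals on the left cover 0 and none on the right does.

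The intervals leave room for sizeable differences. For Cyp2c11 the difference between ligated ghrelin and ligated saline livers was 0.40, with a 95% interval of -1.47 to 2.28. For Cyp3a2 it was 0.91 (-0.16 to 1.98), for Car3 1.09 (-0.29 to 2.48) and for Obp3 0.59 (-0.64 to 1.83). It was 0.39 for Sult1e1 (-0.59 to 1.38), 0.36 for Cyp2a2 (-0.10 to 0.82) and 0.29 for Cyp2c13 (-0.38 to 0.96). The narrowest intervals belonged to Cyp2c7, at 0.13 (-0.17 to 0.42), and Cyp2a2. Cyp3a18 stood at -0.05 (-0.66 to 0.56) and Cyp2c12 at -0.13 (-1.30 to 1.04). Without ligated saline 3 the estimates turned to -0.36 for Cyp2c11, -0.03 for Cyp2c13 and -0.04 for Sult1e1, and 6 of 10 genes were above 0. Without ligated ghrelin 2 the Cyp2c11 estimate was -0.18. The Cyp2c12 estimate turned to 0.08 without ligated saline 3 and to 0.09 without ligated ghrelin 2.

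Ligated ghrelin livers also differed from sham livers. In this comparison, which shares its sham livers with the one above, 11 of 12 probe sets passed, 10 lower and 1 higher, against 23.5% lower and 29.9% higher over all probe sets. The groups did not overlap for 11 of 12, against 35.6% of all. For Cyp2c7 they overlapped. With 1 probe set per gene, 8 of 10 genes were lower and 1 higher, against 2066 lower and 3405 higher of all 9736 genes. Cyp2c11 was at -7.37 ± 0.887 (adjusted p = 3.81e-06) and Cyp2c12 at 4.45 ± 0.554 (adjusted p = 5.30e-06). Sult1e1 was at -1.86 ± 0.467 (adjusted p = 0.00302). Cyp2c13 did not pass, at -0.77 ± 0.318 (adjusted p = 0.0507). Cyp3a2 passed narrowly at -1.29 ± 0.506 (adjusted p = 0.0402). Leaving out single rats moved its adjusted p to as much as 0.0945, the value without ligated ghrelin 4.

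Ligated livers varied among themselves, and several members varied together. Over the 11 ligated livers, ligated saline 3 was the lowest for 5 of the 8 male-biased genes (Cyp2c11, Cyp2c13, Cyp2a2, Cyp3a2 and Sult1e1) and the highest for Cyp2c12. Ligated ghrelin 2 was the highest for 5 of 8 (Cyp2c11, Cyp2a2, Cyp3a2, Cyp3a18 and Sult1e1) and the lowest for Cyp2c12. As a measure of RNA ends, the 3′ minus 5′ difference of the beta-actin control probe sets was 2.13 in ligated ghrelin 2 and 2.03 in ligated saline 3, against 1.86 to 2.37 in sham livers. The same difference for Gapdh was 0.275 in ligated ghrelin 2 and 0.195 in ligated saline 3, the highest of its group, against 0.022 to 0.271 in sham livers. Both differences were highest of all arrays in another rat, ligated ghrelin 3, at 2.62 for beta-actin and 0.620 for Gapdh. The cholangiocyte marker means relative to sham were 4.26 in ligated ghrelin 2 and 5.28, the highest of all, in ligated saline 3. The hepatocyte marker means were -0.05 in ligated ghrelin 2 and -0.27 in ligated saline 3. The part of these values in the result was not tested.

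Cyp2c11 was set against each of the 9 other members over the 11 ligated livers, with permutation p values (100000 permutations, two-sided) adjusted over the 9. Sham livers were left out because they form a cluster of their own. The closest relation was with Sult1e1 (Pearson r = 0.925, permutation p = 0.00018, adjusted 0.00162; Spearman rho = 0.936, p = 9e-05, adjusted 0.00081). For Obp3 the relation also passed (r = 0.770, permutation p = 0.00358, adjusted 0.00983; rho = 0.827, p = 0.00263, adjusted 0.00999), although 3 ligated saline and 1 ligated ghrelin value of Obp3 lay under the filter level, where order carries little information. Cyp2c12 ran opposite to Cyp2c11 (r = -0.766, permutation p = 0.00437, adjusted 0.00983; rho = -0.691, p = 0.0222, adjusted 0.0286). In all, 7 of 9 relations passed by r and by rho, the others being Cyp2c13 (r = 0.844), Cyp3a2 (r = 0.787), Car3 (r = 0.756) and Cyp2a2 (r = 0.710). The share of all genes that would pass against Cyp2c11 was not determined. The count therefore does not show that such relations are particular to the members. Cyp3a18 (r = 0.034, adjusted permutation p = 0.922) and Cyp2c7 (r = 0.215, adjusted permutation p = 0.594) did not pass. The Cyp2c11 value of ligated saline 3 (3.09), which enters all 9 relations, also lay under the filter level. So did the Car3 value of ligated saline 1 (3.86).

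**Figure D3:**
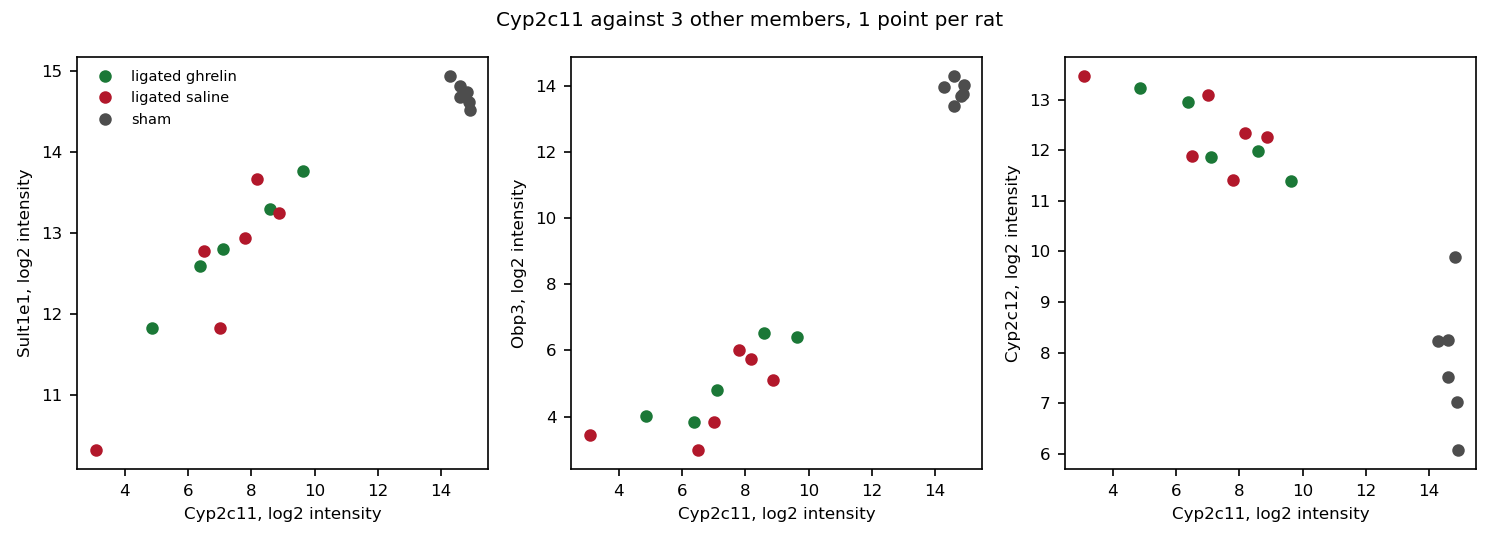
Log2 intensity of Cyp2c11 (horizontal) against Sult1e1, Obp3 and Cyp2c12 (vertical), 1 point per rat in ligated ghrelin (green), ligated saline (red) and sham (grey) livers. Within the 11 ligated livers Sult1e1 and Obp3 were higher, and Cyp2c12 lower, where Cyp2c11 was higher, with r of 0.925, 0.770 and -0.766.

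These relations rested to a large part on the 2 rats farthest from the median of Cyp2c11, ligated ghrelin 2 and ligated saline 3. Without them, over 9 livers, r was 0.797 for Sult1e1 (permutation p = 0.00929, adjusted 0.0836), 0.728 for Obp3 (permutation p = 0.0251, adjusted 0.113) and -0.564 for Cyp2c12 (permutation p = 0.114, adjusted 0.204), and 0 of 9 passed after adjustment. Within the 6 ligated saline livers alone, r was 0.922 for Sult1e1 (exact permutation p = 0.0194, adjusted 0.0792) and -0.650 for Cyp2c12 (exact permutation p = 0.157, adjusted 0.202), and 0 of 9 passed after adjustment. The 5 ligated ghrelin livers are too few for a correlation of their own.

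Markers of other liver cells moved with ligation. Per array, the mean of the markers relative to sham was 4.09 to 4.62 in ligated ghrelin, 3.66 to 5.28 in ligated saline and -0.20 to 0.15 in sham livers for 10 cholangiocyte markers, all 10 of which rose. It was 1.83 to 2.20 in ligated ghrelin, 1.80 to 3.12 in ligated saline and -0.31 to 0.31 in sham livers for 12 stellate cell and myofibroblast markers, of which 11 rose and 1 fell. It was 0.54 to 1.28 in ligated ghrelin, 0.97 to 1.39 in ligated saline and -0.60 to 0.49 in sham livers for 9 macrophage markers, all 9 of which rose. For 12 hepatocyte markers without sex bias it was -0.18 to -0.05 in ligated ghrelin, -0.36 to -0.12 in ligated saline and -0.03 to 0.04 in sham livers. Of these markers 5 of 12 fell, against 27.2% of all genes, with a list median of -0.10. The hepatocyte marker means of both ligated groups lay below all sham livers. Asgr2 (-1.09) and Asgr1 (-0.54), subunits of the asialoglycoprotein receptor, and Hpd (-0.51), an enzyme of tyrosine breakdown, were among those that fell. Albumin (Alb) was at the maximum of the arrays and several other markers of the list stood close to it, so their differences can be compressed. The part of hepatocyte loss in the members' changes was not tested.

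Within ligated livers, the 8 male-biased members were also set against the cholangiocyte marker mean. All 8 correlations were negative, from -0.709 (Car3, permutation p = 0.0153) to -0.028 (Cyp3a18, permutation p = 0.935), and 0 of 8 passed by r or by rho; the adjusted p for Car3 was 0.122. Without ligated saline 1 and ligated saline 3, the farthest from the median of that mean, r for Car3 was -0.311. Against the stellate cell marker mean 0 of 8 passed by r and 3 of 8 by rho (Cyp3a2 at -0.838, Cyp2a2 at -0.755 and Car3 at -0.718). Without ligated saline 1 and ligated saline 2, the farthest from the median of that mean, r was -0.840 for Car3 and -0.747 for Cyp3a2 (both with an adjusted permutation p of 0.0179), and these 2 of 8 passed. The part of other cell types in the variation among ligated livers was not tested beyond these values.

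The growth hormone signalling genes did not move as a group. Of 13 listed, 10 were kept, and 5 rose, 2 fell and 3 were not called after ligation, with a median of 0.26. Over all 9736 genes represented on the array 37.5% rose and 27.2% fell, with a median of 0.07. Ghr, the growth hormone receptor, fell to 11.55 to 12.23 in ligated saline livers, against 13.36 to 13.62 in sham livers, a change of -1.57 ± 0.148 (adjusted p = 1.64e-07). Stat5b, which carries the pulse signal to the nucleus, was at -0.49 ± 0.193 (adjusted p = 0.038), with overlapping groups. That call was lost in 9 of 22 alternatives, 6 of them leaving out 1 rat, with an adjusted p of up to 0.224.

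Among the genes that rose were Jak2, the receptor's kinase (0.92 ± 0.112), Sirpa, a receptor that recruits phosphatases (1.64 ± 0.147), and Grb10, an adaptor that dampens receptor signalling (1.94 ± 0.307). The phosphatase genes Ptpn6 (0.47 ± 0.103) and Ptpn11 (0.52 ± 0.084) rose as well. In the same livers all 9 macrophage markers rose, and the part of other cell types in these rises was not tested. The feedback genes Socs2 (-0.95 ± 0.529, adjusted p = 0.130) and Cish (-0.84 ± 0.641, adjusted p = 0.266), both induced by Stat5, were not called. Socs1, Socs3 and Ghsr, the ghrelin receptor, did not pass the filter.

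The insulin-like growth factor genes, which lie downstream of growth hormone in liver, split evenly: of 7 kept 3 rose, 3 fell and 1 was not called. Igfals, which stabilises circulating growth factor complexes, fell by 1.79 on the log2 scale (SE 0.139, adjusted p = 2.11e-08). Igf1 itself was at -0.43 ± 0.092 (adjusted p = 0.000713) and Igfbp4 at -0.66 ± 0.113. Igfbp1 (2.49 ± 0.327) and Igfbp2 (3.74 ± 0.416), binding proteins that growth hormone or insulin hold down, rose, as did the receptor Igf1r (1.26 ± 0.243). These are differences of each gene from its own sham level.

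Ghrelin changed 3 genes of these 2 lists, where 1.76% of all genes were higher and 0.585% lower. Igfals was higher in ligated ghrelin than in ligated saline livers by 0.64 ± 0.146 (adjusted p = 0.0389), at 10.20 to 10.92 in ligated ghrelin against 9.55 to 10.41 in ligated saline livers. Igfbp4 was higher by 0.52 ± 0.118 (adjusted p = 0.0382), at 9.52 to 9.95 in ligated ghrelin against 8.93 to 9.27 in ligated saline livers. Jak2 was lower (-0.49 ± 0.117, adjusted p = 0.043), at 6.69 to 7.09 in ligated ghrelin against 7.17 to 7.78 in ligated saline livers. The groups did not overlap for Igfbp4 and Jak2 and overlapped for Igfals. All 3 calls were fragile: they were lost in 12, 11 and 14 of 21 alternatives, with an adjusted p of up to 0.105, 0.0867 and 0.125, the highest of each without ligated ghrelin 2. Ghr stood at 0.27 ± 0.155 (adjusted p = 0.319), Stat5b at 0.24 ± 0.203 (adjusted p = 0.509) and Igf1 at 0.12 ± 0.097 (adjusted p = 0.493). In the same comparison 2 of 12 stellate cell and myofibroblast markers were lower, Col3a1 (-0.68, adjusted p = 0.0342) and Rgs5 (-0.70, adjusted p = 0.0389). The list median was -0.63, and 7 of 12 had an unadjusted p under 0.05, against 21.3% of all probe sets. The part of these cells in the 3 calls was not tested.

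**Figure D4:**
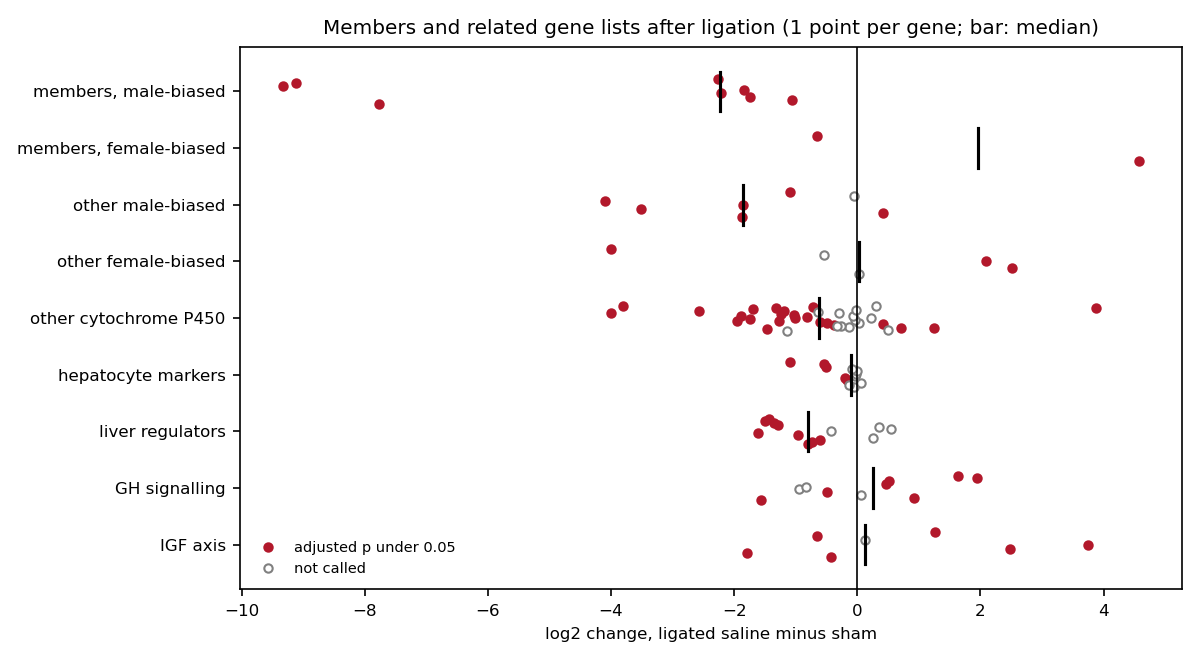
Log2 change in ligated saline minus sham livers, 1 point per gene, for the members and 7 related lists; filled points passed an adjusted p under 0.05 and black bars are list medians. The male-biased members have a median of -2.23 and extend to -9.33, the hepatocyte markers have a median of -0.10, and the growth hormone signalling genes lie on both sides of 0.

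Over all 9736 genes 27.2% fell and 37.5% rose after ligation. Of 13 regulators of the sex-biased genes kept, 9 fell, 0 rose and 4 were not called, with a median of -0.79. Among them were Hnf4a (-0.79 ± 0.097, adjusted p = 2.83e-06) and Cebpa (-1.61 ± 0.243), transcription factors of the mature hepatocyte. Nr1i2, the xenobiotic receptor PXR (-1.30 ± 0.167), its partner Rxra (-1.50 ± 0.288), Foxa3 (-0.96 ± 0.297) and Por, the reductase that supplies P450 enzymes with electrons (-1.43 ± 0.229), also fell. Onecut1, the HNF6 whose core letters are marked in the promoters above, was at -0.74 ± 0.282 (adjusted p = 0.0323). Bcl6 and Cux2, repressors with male and female bias in rodent liver, were not called, at 0.55 ± 0.789 (adjusted p = 0.559) and 0.36 ± 0.367 (adjusted p = 0.411). Ghrelin changed 0 of these 13 by limma at an adjusted p under 0.05. An unadjusted p under 0.05 was found for 3 of 13, against 21.3% of all probe sets. Hnf4a came nearest (0.35 ± 0.102, adjusted p = 0.0714), and 1 other scaling, with array medians set equal, called it (adjusted p = 0.0433).

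Other sex-biased genes went partly the same way. Of 7 other male-biased genes kept, 5 fell, 1 rose and 1 was not called, with a median of -1.86. Over all genes 27.2% fell and 37.5% rose. Mup5, a major urinary protein of the alpha-2u globulin family (-4.10 ± 0.671), and Ust5r, a liver transporter (-3.51 ± 0.395), fell most. The steroid enzymes Hsd3b5 (-1.86 ± 0.263) and Hsd11b1 (-1.10 ± 0.269) and the uptake transporter Slco1a1 (-1.87 ± 0.172) fell as well, and Cyp2c22 rose (0.43 ± 0.069).

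Of 5 other female-biased genes kept, 2 rose, 1 fell and 2 were not called. The sulfotransferases Sult2a2 (2.52 ± 0.864, adjusted p = 0.0182) and Sult2a6 (2.10 ± 0.493, adjusted p = 0.00148) rose, with overlapping groups. Cyp3a9, a female-predominant P450, fell, with a change of -4.00 ± 0.414 (adjusted p = 4.60e-07), opposite to Cyp2c12. Prlr, the prolactin receptor, was at 0.03 ± 0.965 (adjusted p = 0.981) and Akr1b7, an aldo-keto reductase, at -0.54 ± 1.389 (adjusted p = 0.750); Prlr ranged from 2.60 to 10.63 within sham livers. Ghrelin changed 0 of these 12 other sex-biased genes by limma, and 0 of 12 had an unadjusted p under 0.05.

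Relatives of the members in the P450 families were mixed. Of 36 other P450 genes 19 fell, 4 rose and 13 were not called, with a median of -0.62. Over all genes 27.2% fell and 37.5% rose. Cyp2c6v1, which lies next to Cyp2c7 in the cluster and is not known for a strong sex bias, measured 0.03 ± 0.058 (adjusted p = 0.657). Cyp3a23-3a1, a relative of Cyp3a2 that responds to xenobiotics, was at -1.23 ± 0.245 (adjusted p = 0.000363), and Cyp3a9, given above, at -4.00.

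The genes whose pattern over the 17 livers was most like that of Cyp2c11 were found by the root mean square difference of log2 values, each taken minus its own sham mean. Among non-members the 5 nearest were Dhrs7l1 (1.59), Inmt (1.65), Slc22a8 (1.68), Akr1c3 (2.08) and Hao2 (2.19). Their changes after ligation were -7.44, -7.17, -5.76, -5.73 and -5.02, all called. A large fall from sham was part of how these genes were picked, so the calls are not a separate result. The members Car3 (1.26) and Obp3 (1.52) were nearer than any of these. In ligated ghrelin against ligated saline livers the 5 genes stood at -0.40, 0.02, -0.20, 0.92 and -0.18, with adjusted p values from 0.376 to 0.983. The means of Dhrs7l1 (3.33 in ligated ghrelin, 3.73 in ligated saline) and Inmt (2.02 and 2.00) lay under the filter level. The ligated saline mean of Akr1c3 (3.24) also did, against 4.17 in ligated ghrelin. For Dhrs7l1, Inmt and Akr1c3 the sizes of both differences are therefore not well determined. Both ligated means of Slc22a8 and Hao2 lay above that level.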

How the data were processed

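Each array measured liver RNA of 1 rat. The authors deposited linear intensity for every probe set, computed with GCRMA per the submitters' processing notes; no version is given in the sources used here. Intensities were converted to log2 without a pseudocount. Of 31099 probe sets 57 controls were left out, and 15965 passed the filter. Names come from the platform annotation (20826 probe sets with 1 symbol, 436 with several), and a gene was read from whichever of its kept probe sets had the highest mean (9736 genes). RefSeq (GRCr8) gave promoters and gene order; a further motif searched is not reported here.

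Groups come from the source labels, since all titles carry 1 shared name. Replicate numbers are in deposit order and pair nothing. A linear model with 3 group means was used in limma 3.58.1 under R 4.3.3 (eBayes, 14 residual and 2.54 prior degrees of freedom), with Benjamini-Hochberg adjustment over all kept probe sets; 95% intervals are from limma. The fit was tested on simulated data. Nothing in the labels used says more than that the rats are separate samples, so p values measure the spread between these samples. Array median intensities were 15.4 to 16.4 in ligated ghrelin, 16.1 to 17.6 in ligated saline and 14.2 to 14.7 in sham livers. Within groups, arrays correlated at 0.988 to 0.995 and 0 pairs were identical. The number of arrays limits the precision.

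The members and gene lists were chosen with earlier results of these data known. Genes named were all members; in each of the signalling, growth factor, regulator and sex-biased lists, up to 6 genes with the lowest p after ligation plus Ghr, Stat5b, Igf1, Igfals, Socs2, Cish, Hnf4a, Cux2 and Bcl6; and the 5 non-members nearest to Cyp2c11. Onecut1, the P450 relatives, the cell markers named, the genes under the filter and ligated saline 3 and ligated ghrelin 2 were singled out after their values were seen. Correlations used Python 3.11.15 and scipy 1.17.1. Alternatives were no filter, a stricter filter, quantile normalization, equal array medians, eBayes with trend (also robust), array weights, fitting only the groups compared, an adjusted p under 0.01, the other probe set, and leaving out each rat; values relative to the hepatocyte marker mean were added after seeing the data.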

Additional observations from a re-analysis of the deposited data

Results flagged for a closer look

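Of 36 groups of member values examined for a single value far from the rest, 2 stood out, where chance at 1 in 20 gives 1.8. Both concern the Car3 probe set 1386977_at. Ligated ghrelin 2 measured 3.47 (log2 intensity), while the other 4 ligated ghrelin livers lay between 2.11 and 2.35; all 5 are under the filter level. Ligated saline 4 measured 5.21, while the other 5 ligated saline livers lay between 1.94 and 2.73. On the other Car3 probe set, 1367896_at, the same rats were the highest of their groups, ligated ghrelin 2 at 8.46 and ligated saline 4 at 8.67.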

How the results depend on the processing

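The member counts kept to 12 called after ligation and 0 called for ghrelin under every alternative run, and to 10 to 12 in ligated ghrelin against sham livers. No member changed direction where it was called. In ligated ghrelin against sham livers Cyp2c13 passed in 7 alternatives and Cyp3a2 was lost in 12. The relations with Cyp2c11 that passed by r stayed at 7 of 9 (6 of 9 by rho), and those with the cholangiocyte mean at 0 of 8, with array medians set equal. Of the list genes named, Prlr turned to -1.11 after ligation without sham 5 (limma, adjusted p = 0.0338). Leaving out single rats gave -1.11 to 0.50. Sham values of Prlr ranged from 2.60 to 10.63, the lowest under the filter level of 3.95. Why that value was low was not tested.

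Scaling moved the whole distribution. The median change of all probe sets after ligation was 0.04, against -0.15 with array medians set equal, -0.11 with quantile normalization and 0.27 relative to the hepatocyte marker mean. Of the probe sets called after ligation 55.7% were higher, against 39%, 42% and 74.8% under those settings and 27.1% without a filter. In ligated ghrelin against sham livers 56% were higher, against 43.1%, 43.8%, 68.8% and 25.7%. For ghrelin against saline 59.2% were higher, against 80.4% with equal medians and 20.4% relative to the hepatocyte markers. Without a filter 22230 probe sets were called after ligation (9825 with it) and 19914 in ligated ghrelin against sham livers (8534 with it). The ghrelin calls, 355 in all, became 154 without a filter, 542 with quantile normalization, 611 with equal medians, 118 with 2 groups fitted and 1 at an adjusted p under 0.01, and ranged from 35 to 653 when single rats were left out. No paired analysis was possible because the replicate numbers only follow the order of deposit and tie no rat to a rat of another group. Values under the filter level are close to background, and their order carries little information.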
